A study of Mus musculus with 22 samples.

Results

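The genes of the ADAM and ADAMTS proteases were followed in the livers of Cyp2c70 knockout and wild-type mice on 2 diets. The members were all genes on the array whose single annotated symbol begins with Adam or Adamts (Adamtsl included) followed by a number, 57 of 24011 genes. ADAMs are membrane proteins with a metalloprotease domain that cut other membrane proteins close to the cell surface, a step called shedding that frees growth factors, cytokines and adhesion molecules. ADAMTS proteins are their secreted relatives with thrombospondin repeats, and they cut proteoglycans, procollagens and other proteins of the extracellular matrix. ADAMTS-like proteins keep the matrix-binding repeats and lack the protease domain. In liver these genes are known mostly from stellate cells, fibroblasts, endothelium and leukocytes, and from studies of fibrosis and of regeneration.

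RNA of whole liver came from 22 female mice of the C57BL/6J strain, aged 12 weeks, and each mouse was measured on 1 array. Knockout mice fed ursodeoxycholic acid, a hydrophilic bile acid used to treat cholestasis, form the group KO_UDCA (n = 6), and knockout mice on regular chow form KO_chow (n = 5). Wild-type mice on the same bile acid diet form WT_UDCA (n = 6), and wild-type mice on chow form WT_chow (n = 5). Feeding with 0.1% ursodeoxycholic acid began at 5 weeks of age and went on for 7 weeks. The enzyme encoded by Cyp2c70 turns other bile acids into muricholic acids in mice, and the labels give no detail of how its gene was disrupted or whether the mice of a group were littermates.

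The deposited values are array intensities, which were compared on the log2 scale, so that a difference of 1 is a doubling. The array medians lay close together, between 4.85 and 4.96 on that scale. The targeted gene Cyp2c70 was 10.52 to 10.83 in KO_chow, against 11.28 to 11.62 in WT_chow, which is 1.78-fold lower (limma adjusted p = 3.2e-06), and the labels do not say whether its probes lie in the disrupted part. The KO_chow arrays stood apart from one another: on the first principal component (26.7% of the variance) replicates 1 to 5 lay at 18.6, 53.4, 32.5, 15.7 and 51.9, while every array of the other groups lay below 0. The fits were therefore also run without replicates 2 and 5, the farthest out, and lost calls are given beside the results. Replicate numbers only name the mice within a group.

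On chow, 13 of the 57 genes were higher in KO_chow than in WT_chow and 0 were lower (limma, adjusted p below 0.05 after Benjamini-Hochberg adjustment over all 24011 genes). Lower calls appeared in fits that left out 1 mouse: Adam2 and Adamts8 without WT_chow replicate 3 (adjusted p = 0.0328 and 0.00982), and Adamts8 without KO_chow replicate 1 (0.0404). The 13 higher calls with all mice are 22.8% of the members, against 13.7% of all genes called in either direction, 7.69% called higher and 6.03% called lower. The 13 were 5 of the 7 proteoglycan-cutting ADAMTS genes, 3 of the 9 membrane ADAMs of somatic tissues, 2 of the 5 ADAMTS-like genes and 1 gene each of 3 other ADAMTS families. The median change over all 57 was 0.02 log2, against -0.04 over all genes, so most members stayed near the level of the other genes. In KO_UDCA, 9 of the 57 were lower than in KO_chow and 0 were higher, or 15.8% of the members against 11.2% of all genes called in either direction and 6.22% called lower. The 2 comparisons share the KO_chow mice, so a high KO_chow value enters both.

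**Figure D1:**
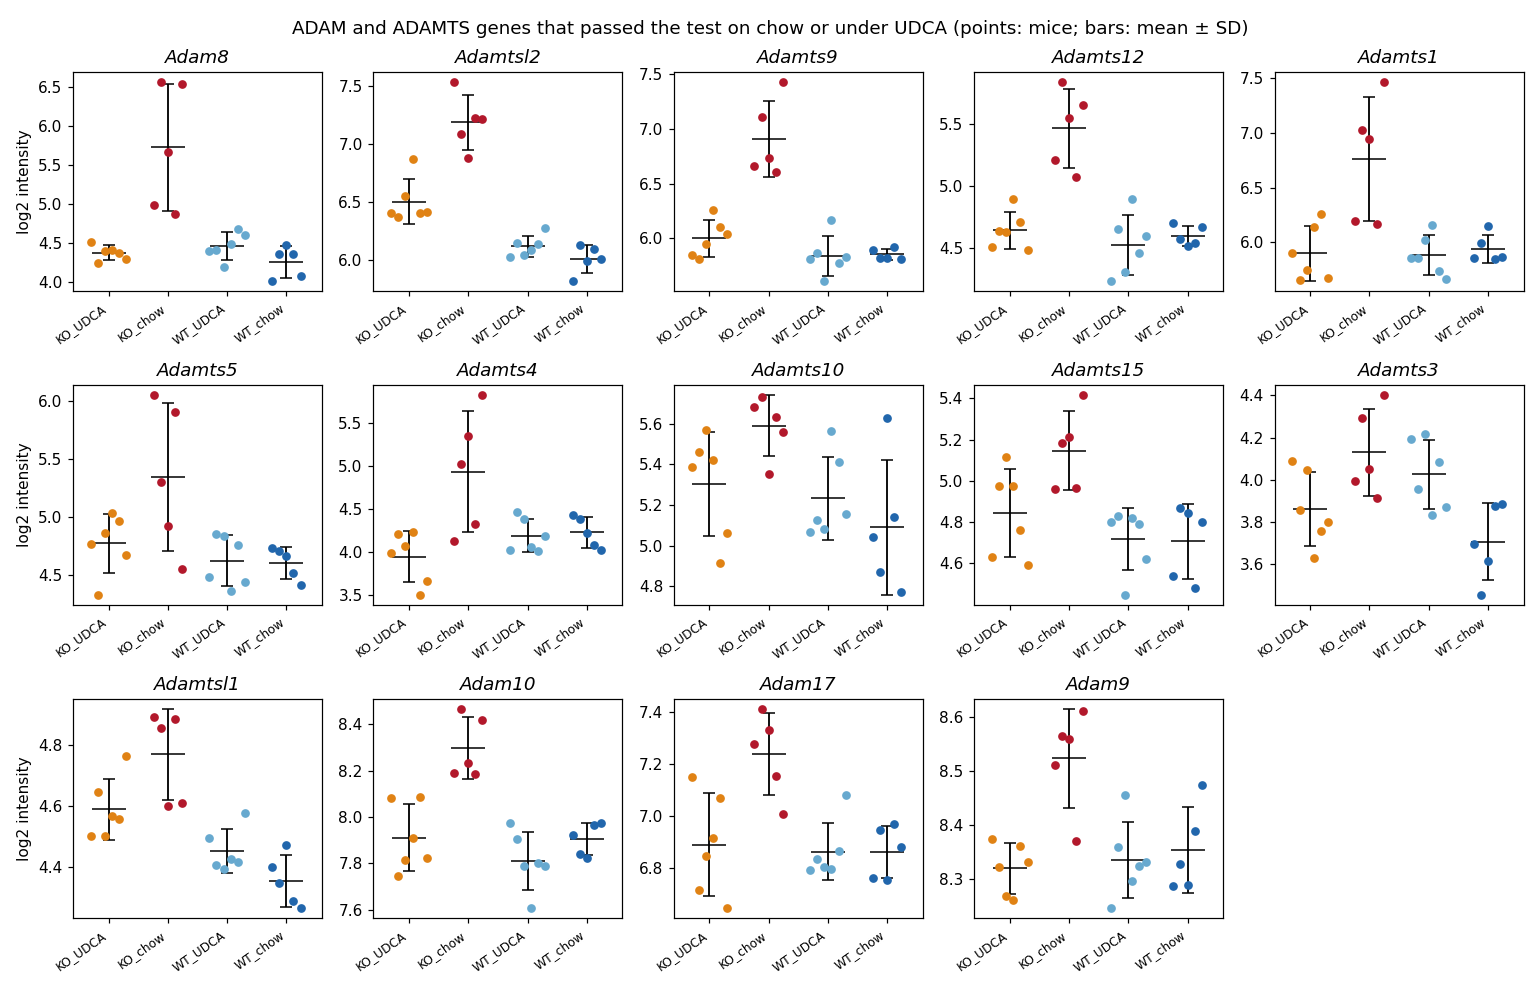
Log2 intensity of the members called in KO_chow vs WT_chow or in KO_UDCA vs KO_chow, 1 panel per gene and 1 point per mouse, in the order KO_UDCA, KO_chow, WT_UDCA, WT_chow; bars are the mean ± SD of a group. For Adam8, Adam10, Adamts9, Adamts12 and Adamtsl2 all 5 KO_chow points lie above all points of the other 3 groups.

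The promoters of the 5 genes with the largest rises on chow are shown, from RefSeq, because all 5 were called higher in KO_chow than in WT_chow and lower in KO_UDCA than in KO_chow. Each is the 250 bases before the annotated start of the gene in assembly GRCm38.p6, written 5′ to 3′ on the gene's own strand. They lie at chr7:139992563-139992812 (minus strand) for Adam8, chr2:27079129-27079378 (plus strand) for Adamtsl2, chr6:92943535-92943784 (minus strand) for Adamts9, chr15:11064523-11064772 (plus strand) for Adamts12 and chr16:85803114-85803363 (minus strand) for Adamts1. Capitals mark TATAAA, the letters of a TATA box, and GGGCGG or its reverse complement CCGCCC, the letters of a GC box.
Adam8: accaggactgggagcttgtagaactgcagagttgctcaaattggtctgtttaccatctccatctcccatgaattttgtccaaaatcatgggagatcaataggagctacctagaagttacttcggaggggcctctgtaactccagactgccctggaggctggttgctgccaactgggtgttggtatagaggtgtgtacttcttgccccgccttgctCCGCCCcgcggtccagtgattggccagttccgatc
Adamtsl2: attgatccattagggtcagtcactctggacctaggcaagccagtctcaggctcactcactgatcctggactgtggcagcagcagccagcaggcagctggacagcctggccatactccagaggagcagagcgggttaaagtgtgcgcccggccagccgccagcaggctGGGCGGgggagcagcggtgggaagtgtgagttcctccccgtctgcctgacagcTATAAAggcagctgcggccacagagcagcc
Adamts9: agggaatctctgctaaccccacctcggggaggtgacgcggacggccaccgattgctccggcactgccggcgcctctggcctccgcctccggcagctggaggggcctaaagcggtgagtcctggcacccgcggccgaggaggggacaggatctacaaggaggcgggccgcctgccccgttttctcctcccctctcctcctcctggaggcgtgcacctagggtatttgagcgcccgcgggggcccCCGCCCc
Adamts12: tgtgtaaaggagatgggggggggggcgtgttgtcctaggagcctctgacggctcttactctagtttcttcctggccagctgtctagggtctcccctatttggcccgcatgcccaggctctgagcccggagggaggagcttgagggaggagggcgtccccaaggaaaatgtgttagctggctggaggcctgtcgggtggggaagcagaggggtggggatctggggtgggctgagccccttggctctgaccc
Adamts1: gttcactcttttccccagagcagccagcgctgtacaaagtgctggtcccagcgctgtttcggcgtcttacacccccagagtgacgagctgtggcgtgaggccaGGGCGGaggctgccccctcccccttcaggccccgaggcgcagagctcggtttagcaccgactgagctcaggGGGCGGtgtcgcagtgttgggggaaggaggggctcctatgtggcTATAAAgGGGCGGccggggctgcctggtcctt
Adamts1 and Adamtsl2 hold TATAAA with its first base 32 and 30 bases before the start, and the windows of Adam8, Adamts9 and Adamts12 hold no such match. The Adamts9 window is the richest of the 5 in G and C (71.2%), and the Adam8 window (52.8%) is close to the median of all promoters in the table (52.4%). Of the 13 genes higher in KO_chow, 8 have an entry, 7 of these hold a GC box and 2 hold TATAAA, and among all 32851 windows of this length 32.7% and 12.4% do. The letters TGANTCA (AP-1), TGACGTCA (CRE) and GGAATG (TEAD), searched like the others on both strands, are in 0 of the 8 windows, and in 6.75%, 1.55% and 12.6% of all windows. These matches describe the sequence only, and binding of factors was not measured here.

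Among the membrane ADAMs, Adam8, a sheddase known from neutrophils and macrophages, had the largest rise of all members. Its log2 level was 4.99, 6.57, 5.67, 4.87 and 6.54 in KO_chow, against 4.02, 4.36, 4.48, 4.37 and 4.08 in WT_chow. All KO_chow mice were above all WT_chow mice, but KO_chow replicates 1 and 4 were only modestly so and replicates 2 and 5 far above. The mean difference was 1.47 log2 (SE 0.23), or 2.76-fold (limma, adjusted p = 0.000179). In KO_UDCA, Adam8 ranged from 4.25 through a median of 4.39 to 4.52, below every KO_chow mouse and across the WT_UDCA range of 4.19, median 4.45, to 4.69. That is 2.55-fold lower than in KO_chow (log2 change -1.35, SE 0.22, limma adjusted p = 0.000360). In every mouse of KO_UDCA, WT_UDCA and WT_chow, and in KO_chow replicate 4, Adam8 lay below the median of its array, where background limits what a fold can show.

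Levels in bulk liver do not tell a change in the number of cells of a type from a change in RNA per cell. The summed intensity of 7 markers of monocyte-derived macrophages was 462 to 582 in KO_UDCA and 926, 3162, 1112, 974 and 2175 in KO_chow replicates 1 to 5, against 388 to 471 in WT_chow. The mice with the highest marker sums, replicates 2 and 5, were also those with the highest Adam8 values. These mice also had the highest KO_chow sums of neutrophil, cholangiocyte, stellate cell and fibroblast markers, so the match is not particular to macrophages. All 7 macrophage markers were called higher in KO_chow than in WT_chow, against 7.69% of all genes. Of the 7, 6 were still called without KO_chow replicates 2 and 5. Of 6 neutrophil markers 4 were called higher, but only 1 without these replicates. Their sums were 101, 163, 145, 96 and 151 in KO_chow replicates 1 to 5, against 80 to 98 in WT_chow. The part of these cells in the Adam8 result was not tested. Without KO_chow replicates 2 and 5, Adam8 remained called in both comparisons, with a smaller rise on chow of 0.91 log2 (limma adjusted p = 0.00057) and a change of -0.80 in KO_UDCA vs KO_chow (adjusted p = 0.00251).

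Adam10 and Adam17 are the best known sheddases: Adam10 cuts Notch receptors, E-cadherin and many other proteins, and Adam17, also called TACE, releases tumour necrosis factor and ligands of the epidermal growth factor receptor. Both had small rises with little spread. Adam10 was 8.19, 8.47, 8.23, 8.19 and 8.42 log2 in KO_chow, against 7.92, 7.84, 7.82, 7.97 and 7.97 in WT_chow. Adam17 was 7.28, 7.41, 7.33, 7.15 and 7.01 in KO_chow, against 6.76, 6.95, 6.75, 6.97 and 6.88 in WT_chow. For neither gene did the groups overlap, though the lowest Adam17 value of KO_chow was only just above the highest of WT_chow. Adam10 rose by 0.39 log2 (SE 0.09, limma adjusted p = 0.00352) and Adam17 by 0.37 (SE 0.10, adjusted p = 0.0123), or 1.31-fold and 1.30-fold.

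In KO_UDCA, Adam10 lay between 7.75 and 8.09, median 7.87, below every KO_chow mouse and 1.31-fold lower on average (log2 change -0.39, SE 0.08, limma adjusted p = 0.00364). Adam17 lay between 6.65 and 7.15, median 6.88, and its highest values overlapped the lowest of KO_chow. It was 1.27-fold lower (log2 change -0.35, SE 0.09, limma adjusted p = 0.0189), and this call ended without KO_chow replicate 2 (adjusted p = 0.0691) or without KO_UDCA replicate 6 (0.0531). Without KO_chow replicates 2 and 5 together, neither gene was called in KO_UDCA vs KO_chow (Adam10 -0.29 log2, limma adjusted p = 0.0943, and Adam17 -0.36, adjusted p = 0.0669). On chow Adam10 was then not called (0.30 log2, adjusted p = 0.0792), and Adam17 still was (0.39, adjusted p = 0.0399).

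Adam9, another broadly expressed membrane sheddase, was called in KO_UDCA vs KO_chow but, in the fit used throughout, not on chow. Its levels were 8.26 to 8.37 (median 8.33) in KO_UDCA, and 8.51, 8.56, 8.56, 8.37 and 8.61 in KO_chow. The groups touched at KO_chow replicate 4, and the mean was 1.15-fold lower in KO_UDCA (log2 change -0.20, SE 0.06, limma adjusted p = 0.0430). This call was lost in 10 of 11 fits that left out 1 mouse and without KO_chow replicates 2 and 5 (-0.16 log2, adjusted p = 0.297), and on chow Adam9 differed by 0.17 log2 (adjusted p = 0.103). On chow it was called with dim genes left out (limma adjusted p = 0.0406), with quantile normalization (0.0475) and with a pseudocount of 16 (0.0272). It was also called there without KO_chow replicate 4 (0.0426). Of the remaining 5 somatic membrane ADAMs, Adam15 had the smallest p on chow (log2 change 0.31, limma adjusted p = 0.0674). It was called without WT_chow replicate 2, KO_chow replicate 1 or KO_chow replicate 4 (adjusted p = 0.0418, 0.0474 and 0.0176) and with dim genes left out (0.0335). Adam12, Adam19, Adam28 and Adam33 lay between -0.16 and 0.20 log2.

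The proteoglycan-cutting ADAMTS proteases, named for cleavage of versican and aggrecan, held the most called genes of any family: Adamts1, Adamts4, Adamts5, Adamts9 and Adamts15 rose in KO_chow, and Adamts8 and Adamts20 did not pass the test. Adamts9, a versican-cutting protease, was 6.66, 7.10, 6.74, 6.60 and 7.43 in KO_chow, against 5.89, 5.82, 5.82, 5.92 and 5.81 in WT_chow. The 5 WT_chow mice lay close together and every KO_chow mouse was well above them, a difference of 1.05 log2 (SE 0.13) or 2.08-fold (limma, adjusted p = 7.2e-06). In KO_UDCA it lay between 5.81 and 6.26, median 5.99, below every KO_chow mouse and 1.87-fold lower (log2 change -0.91, SE 0.12, limma adjusted p = 4.45e-05).

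Adamts1, which cuts versican and aggrecan and is induced in many inflamed tissues, was 6.20, 7.03, 6.95, 6.17 and 7.47 in KO_chow, against 5.86, 6.00, 6.14, 5.85 and 5.86 in WT_chow. KO_chow replicates 1 and 4 were barely above the highest WT_chow mouse, and the other 3 were clearly above it. The mean rise was 1.77-fold (log2 change 0.82, SE 0.19, limma adjusted p = 0.00425). In KO_UDCA, Adamts1 ranged from 5.66 to 6.26, median 5.83, overlapped the 2 lowest KO_chow mice and was 1.82-fold lower (log2 change -0.87, SE 0.18, limma adjusted p = 0.00258). Neither call held without KO_chow replicates 2 and 5, where the changes were 0.50 log2 on chow (adjusted p = 0.104) and -0.54 in KO_UDCA vs KO_chow (adjusted p = 0.0799).

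Adamts4, the first aggrecanase described, had 4.13, 5.02, 5.36, 4.33 and 5.83 in KO_chow, against 4.44, 4.39, 4.22, 4.08 and 4.03 in WT_chow. KO_chow replicates 1 and 4 lay within the WT_chow range, and the rise of 1.63-fold (log2 change 0.70, SE 0.22, limma adjusted p = 0.0381) was lost in 6 of 10 fits that left out 1 mouse. In KO_UDCA it lay between 3.51 and 4.23, median 4.03, 1.98-fold lower than in KO_chow (log2 change -0.99, SE 0.22, limma adjusted p = 0.00402) and overlapping it at KO_chow replicate 1. Adamts4, without KO_chow replicates 2 and 5, was called in neither comparison (0.38 log2 on chow, adjusted p = 0.396, and -0.66 in KO_UDCA vs KO_chow, adjusted p = 0.0943). All its wild-type and KO_UDCA values, and those of KO_chow replicates 1 and 4, lay below the array medians.

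Adamts5, the main aggrecanase of mouse cartilage, showed another order of mice. Its levels were 6.04, 5.30, 4.93, 5.90 and 4.55 in KO_chow, against 4.74, 4.71, 4.66, 4.52 and 4.41 in WT_chow. Replicates 1 and 4, among the lowest KO_chow mice for Adam8, Adamts1 and Adamts4, were the highest here, and replicate 5 fell inside the WT_chow range. The rise was 1.67-fold (log2 change 0.74, SE 0.20, limma adjusted p = 0.0171). It was 1.02 log2 without replicates 2 and 5 (adjusted p = 0.00323), and without replicate 1 alone it just missed the threshold (0.0502). In KO_UDCA, Adamts5 lay between 4.33 and 5.04, median 4.82, with a change from KO_chow of -0.57 log2 that was not called (limma adjusted p = 0.0622). That call depended on the mice: without KO_chow replicates 2 and 5 it was -0.85 log2 and called (adjusted p = 0.0159), as it was without KO_chow replicate 3 (0.0377) or replicate 5 (0.00884) and with the run of title numbers as a term (0.0372). Adamts1 and Adamts5 are neighbours on chromosome 16, with no other protein-coding gene between them in the RefSeq annotation.

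Adamts15, a versican-cutting protease next to Adamts8 on chromosome 9, was 4.96, 5.18, 5.21, 4.97 and 5.42 in KO_chow, against 4.54, 4.87, 4.85, 4.48 and 4.80 in WT_chow, with no overlap. It rose 1.36-fold (log2 change 0.44, SE 0.12, limma adjusted p = 0.0130) and lay between 4.59 and 5.12, median 4.87, in KO_UDCA. The change from KO_chow was -0.30 log2 there and was not called (limma adjusted p = 0.0855). Its chow call ended without KO_chow replicate 5 (adjusted p = 0.0508). Its neighbour Adamts8 had a change of -0.32 on chow (adjusted p = 0.0682), and Adamts20 one of 0.04.

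In the remaining ADAMTS groups single genes were called. Adamts12, a matrix protease known to cut cartilage oligomeric matrix protein, was 5.21, 5.84, 5.55, 5.07 and 5.65 in KO_chow, against 4.70, 4.58, 4.51, 4.54 and 4.67 in WT_chow. Every KO_chow mouse was above every WT_chow mouse, by 1.82-fold on average (log2 change 0.87, SE 0.13, limma adjusted p = 0.000101). Its KO_UDCA levels were 4.49 to 4.89, median 4.64, again below every KO_chow mouse and 1.77-fold lower (log2 change -0.82, SE 0.13, limma adjusted p = 0.000161). Its wild-type values and at least some KO_UDCA values lay below the array medians, where background limits what a fold can show. Its closest relative Adamts7 had a change of 0.12 on chow (adjusted p = 0.586).

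Adamts3, known for processing procollagen and the lymphatic growth factor Vegfc, was 3.99, 4.29, 4.05, 3.91 and 4.40 in KO_chow, against 3.69, 3.45, 3.61, 3.88 and 3.88 in WT_chow. The groups did not overlap, by a narrow margin, and all 22 mice were below the median of their array. It rose 1.34-fold (log2 change 0.43, SE 0.11, limma adjusted p = 0.0142), and the call ended without KO_chow replicate 5 (adjusted p = 0.0548). Adamts14, which also processes procollagen, had a change of -0.11 (limma adjusted p = 0.380). In KO_UDCA, Adamts3 lay between 3.63 and 4.09, median 3.83, overlapping KO_chow, with a change of -0.27 log2 that was not called (limma adjusted p = 0.126).

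Adamts10, which binds fibrillin microfibrils, was 5.68, 5.73, 5.35, 5.63 and 5.56 in KO_chow, against 5.04, 4.87, 5.63, 5.14 and 4.77 in WT_chow. The highest WT_chow mouse, replicate 3, lay among the KO_chow mice. The rise was 1.41-fold (log2 change 0.50, SE 0.15, limma adjusted p = 0.0234), and it lost its call in 3 of 10 fits that left out 1 mouse. In KO_UDCA it lay between 4.92 and 5.57, median 5.41, with a change from KO_chow of -0.29 log2 that was not called (limma adjusted p = 0.213). The other 5 genes of its group, Adamts6, Adamts16, Adamts17, Adamts18 and Adamts19, lay between -0.16 and 0.17. Adamts13, the protease that trims von Willebrand factor and is made in liver by stellate cells, was 5.21, 5.24, 5.46, 5.44 and 5.15 in KO_chow, against 5.45, 5.72, 5.47, 5.25 and 5.36 in WT_chow. These ranges overlapped, and the change of -0.15 log2 had a 95% interval of -0.37 to 0.06 (adjusted p = 0.395). The change of its substrate gene Vwf was 0.03 (adjusted p = 0.892).

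Adamtsl2, a secreted matrix protein known for binding a latent TGF-beta binding protein, had the smallest p-value of all members. Its levels were 7.54, 7.09, 6.88, 7.22 and 7.21 in KO_chow, against 5.82, 6.13, 5.99, 6.09 and 6.01 in WT_chow. The 2 groups lay far apart, and replicates 2 and 5 were not the highest KO_chow mice. The rise was 1.18 log2 (SE 0.11) or 2.27-fold (limma, adjusted p = 1.81e-07). In KO_UDCA, Adamtsl2 lay between 6.37 and 6.88, median 6.41, 1.61-fold lower than in KO_chow (log2 change -0.69, SE 0.10, limma adjusted p = 0.000141), with the highest KO_UDCA mouse just below the lowest KO_chow mouse. Adamtsl1, a related matrix glycoprotein, was 4.89, 4.85, 4.60, 4.88 and 4.61 in KO_chow, against 4.40, 4.35, 4.47, 4.29 and 4.26 in WT_chow, with no overlap. It rose 1.33-fold (log2 change 0.41, SE 0.08, limma adjusted p = 0.000995), although all its values were below the array medians, and its change of -0.18 log2 in KO_UDCA vs KO_chow was not called (limma adjusted p = 0.140). Adamtsl3, Adamtsl4 and Adamtsl5 lay between -0.09 and 0.06.

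The matrix-producing cells of liver were also followed through their markers. Of all genes, 7.69% were called higher on chow and 6.03% lower. On chow, 5 of 8 stellate cell markers were called higher, with summed intensities of 1728 to 2121 in KO_chow against 1206 to 1433 in WT_chow. Of 10 markers of portal fibroblasts and myofibroblasts 4 were higher (sums of 1104 to 1472 in KO_chow, against 642 to 677 in WT_chow), and of 8 cholangiocyte markers all 8 were higher (637 to 1275 in KO_chow, against 249 to 280 in WT_chow). In KO_UDCA the sums were 1222 to 1553 for stellate cells, 624 to 1001 for fibroblasts and 274 to 412 for cholangiocytes. Of 6 Kupffer cell markers 4 were lower on chow (sums of 807 to 1061 in KO_chow, against 1293 to 1498 in WT_chow), and 1 of 6 endothelial markers and 1 of 6 markers of T, NK and B cells were higher. Hepatocyte markers did not separate the groups: 0 of 5 were called and the sums were 23032 to 23836 in KO_chow, against 23343 to 25313 in WT_chow. No defining marker was at 0, since all array intensities are positive, and in WT_chow 3 cholangiocyte markers, 3 macrophage markers and all 6 neutrophil markers lay below the array median in every mouse. The markers called on chow without KO_chow replicates 2 and 5 were 4 for stellate cells, 3 for fibroblasts, 7 for cholangiocytes, 3 for Kupffer cells and 0 for endothelium and for T, NK and B cells. The part of these cell types in the changes of the ADAMTS genes was not tested.

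The ADAMs known from testis, epididymis and sperm, where Adam2 and others act in fertilization, form the largest family of the array with 21 genes, and 0 of them were called in either comparison with all mice. Their values lay below the array median in 448 of 462 cases, so that for most of these genes the array gives little above its background. On chow their changes ran from -0.47 (Adam6b, limma adjusted p = 0.225) to 0.07, and 4 of 21 were above 0. Adam2 had the smallest p-value, with a change of -0.23 on chow (adjusted p = 0.152) and of 0.28 in KO_UDCA vs KO_chow (adjusted p = 0.0655). In KO_UDCA vs KO_chow, Adam2 was called higher without KO_chow replicate 1 (adjusted p = 0.0206) or KO_UDCA replicate 4 (0.0421), and Adam18 without KO_chow replicate 5 (0.0333). Adam34l, a gene next to Adam34 that was in no family of the list and is drawn with this one, had a change of -0.09 on chow (limma adjusted p = 0.816). The 3 ADAMs of the nervous system, which lack an active protease, were not called either, and the largest of their changes was 0.33 for Adam23 (adjusted p = 0.134). Close copies such as Adam26a and Adam26b, Adam6a and Adam6b or Adam1a and Adam1b may share probes, so their separate values are uncertain.

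Of the 13 genes that rose on chow, 10 were higher in every KO_chow mouse than in any WT_chow mouse, or 17.5% of the members, against 5.45% of all genes. The exceptions were Adamts4, Adamts5 and Adamts10. Of the 9 that were lower in KO_UDCA, 5 were lower in every KO_UDCA mouse than in any KO_chow mouse (Adam8, Adam10, Adamts9, Adamts12 and Adamtsl2), or 8.77% of the members, against 3.27% of all genes. Counted by mouse, KO_chow replicates 1 to 5 exceeded every WT_chow mouse in 12, 13, 12, 12 and 11 of the 13 genes, against 78.1% to 98.1% of the 1847 genes called higher. Since the 13 were chosen for this difference, these counts describe the mice and test nothing. In KO_UDCA mice the counts were 7, 3, 6, 6, 8 and 3 of 13, against 23.6% to 47.9% of those 1847 genes. In WT_UDCA mice they were 3, 4, 2, 4, 4 and 4 of 13, against 18.7% to 27.5% of those genes.

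**Figure D2:**
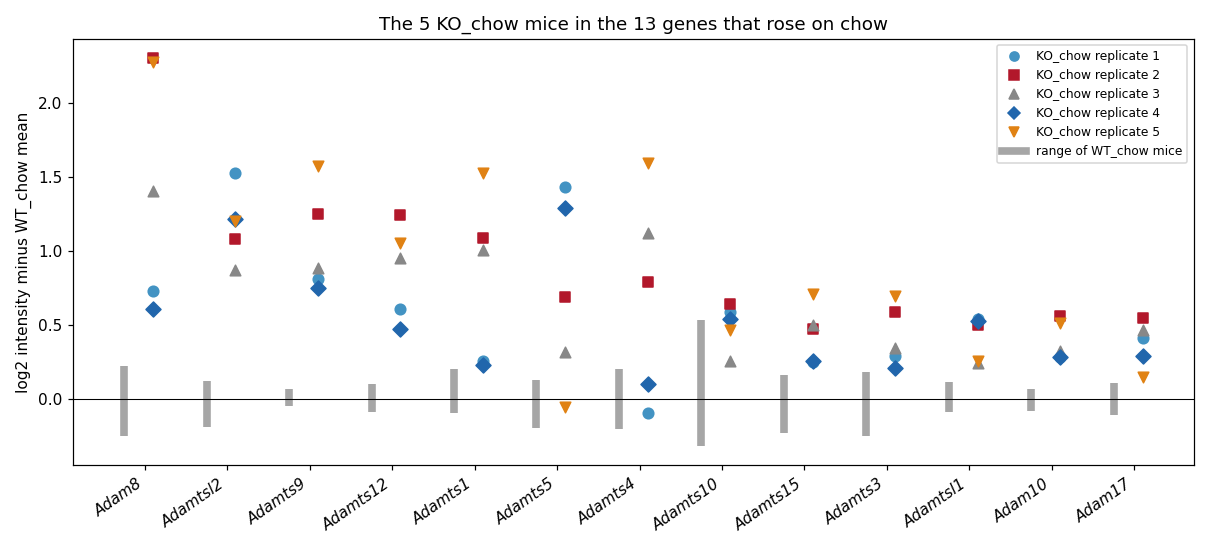
Log2 level of the 13 members called higher on chow in each of the 5 KO_chow mice, minus the WT_chow mean of the gene; grey bars are the range of the WT_chow mice. Adam8, Adamts1 and Adamts9 are highest in replicates 2 and 5, whereas Adamts5 and, by narrow margins, Adamtsl1 and Adamtsl2 are highest in replicates 1 and 4.

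The 13 genes did not share 1 order of the KO_chow mice. Replicates 2 and 5 were the 2 highest for Adam8, Adam10, Adamts1, Adamts3, Adamts9 and Adamts12, which is 6 of 13, against 51.5% of the 1847 genes called higher on chow. Replicates 1 and 4, which lay lowest on the first principal component, were the 2 highest for Adamts5, Adamtsl1 and Adamtsl2, which is 3 of 13, against 5.52% of the 1847 genes. For Adamtsl1 and Adamtsl2 replicate 4 was only just above the next mouse, so these ranks are uncertain, and a wide gap was seen for Adamts5 alone. With 5 mice this is a description of the animals. Without replicates 2 and 5, 7 of the 13 remained called on chow (Adam8, Adam17, Adamts5, Adamts9, Adamts12, Adamtsl1 and Adamtsl2), while all genes called dropped to 1089, against 3295 with them. The 6 that lost their call were Adam10, Adamts1, Adamts3, Adamts4, Adamts10 and Adamts15, with adjusted p between 0.0792 and 0.396.

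KO_UDCA was then compared with both wild-type groups. Between KO_UDCA and WT_UDCA, 0 of 57 members were called by limma, against 0.0167% of all genes, and 2 members had an unadjusted p below 0.05, against 5.45% of all genes. Between KO_UDCA and WT_chow, 0 were called, against 0.025% of all genes, and 3 had an unadjusted p below 0.05, against 5.62%. Adamtsl2 was the member with the smallest p in both. Its KO_UDCA values of 6.37 to 6.88 were above every WT_UDCA mouse (6.03 to 6.27, median 6.11) and every WT_chow mouse, as 0.108% and 0.433% of all genes were. The difference was 0.38 log2 (95% interval 0.18 to 0.59, limma adjusted p = 0.457) from WT_UDCA and 0.49 (0.28 to 0.71, adjusted p = 0.128) from WT_chow. Neither difference passed the adjustment over all genes.

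Adamtsl1 was likewise higher in every KO_UDCA mouse (4.50 to 4.76, median 4.56) than in any WT_chow mouse, by 0.24 log2 (95% interval 0.08 to 0.39, limma adjusted p = 0.620), and it overlapped WT_UDCA. Adamts14 was lower in every KO_UDCA mouse (4.91 to 5.08, median 5.00) than in any WT_UDCA mouse (5.13 to 5.31, median 5.20), with a change of -0.21 log2 (SE 0.07, limma adjusted p = 0.697), a pattern that 0.183% of all genes shared. For Adam8 the 95% interval of the difference between KO_UDCA and WT_chow was -0.35 to 0.58 log2, and for Adamts9 it was -0.11 to 0.41. Remaining differences within these intervals are compatible with the data.

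In wild-type mice the bile acid diet gave 0 calls among the members and 0 among all genes by limma (0%), and 3 members, Adam25, Adam6a and Adamts3, had an unadjusted p below 0.05, against 5.57% of all genes. Adamts3 was 3.83 to 4.22 (median 4.02) in WT_UDCA, higher by 0.32 log2 than in WT_chow (limma adjusted p = 0.777) with overlapping ranges. Adam10 lay between 7.61 and 7.98 in WT_UDCA, Adam17 between 6.79 and 7.08, Adam9 between 8.25 and 8.46, and Adamts13 between 5.23 and 5.61. Adamts1 lay between 5.66 and 6.16, Adamts4 between 4.01 and 4.47, Adamts5 between 4.36 and 4.86, Adamts9 between 5.61 and 6.17 and Adamts15 between 4.45 and 4.83. Adamts10 lay between 5.07 and 5.56, Adamts12 between 4.23 and 4.90 and Adamtsl1 between 4.39 and 4.58. All of these ranges overlapped those of WT_chow. The test of whether the diet acted differently in the 2 genotypes called 5 members, all with a negative interaction (KO_UDCA minus KO_chow below WT_UDCA minus WT_chow), or 8.77% of the members, against 2.67% of all genes in either direction and 2.07% in this direction. The interaction was -1.55 log2 (SE 0.32) for Adam8, -0.90 (SE 0.18) for Adamts9, -0.80 (SE 0.15) for Adamtsl2, -0.75 (SE 0.18) for Adamts12 and -0.59 (SE 0.16) for Adamts3. The limma adjusted p-values ran from 0.00438 for Adamtsl2 to 0.0427 for Adamts3. For Adamts3 the value combines -0.27 log2 in knockouts and 0.32 in wild types, neither of them called. For Adam8 it combines -1.35 log2 in knockouts with 0.20 in wild types. Without KO_chow replicates 2 and 5, Adam8 (-1.004 log2, adjusted p = 0.0122), Adamts9 (-0.66, adjusted p = 0.0236) and Adamtsl2 (-0.82, adjusted p = 0.0164) remained called, and Adamts12 (adjusted p = 0.169) and Adamts3 (adjusted p = 0.257) did not.

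The genes around these proteases were read from lists of inhibitors, maturation factors and substrates. The lists were chosen with earlier results of these data known, so their counts describe the lists and test nothing. Some listed genes, such as Col3a1, are also among the cell type markers above, so the counts share genes. Of the 5 inhibitor genes, Timp1, Timp2 and Timp3 rose on chow and 0 fell, with a median of 0.62 log2 over the list, against -0.04 over all genes. That is 60% of the list, against 7.69% of all genes called higher. Timp1, a secreted inhibitor of many metalloproteases, was 4.65-fold higher in KO_chow (limma adjusted p = 1.81e-07), Timp2 1.77-fold (adjusted p = 5.45e-06), and Timp3, the matrix-bound inhibitor that acts best on ADAM17 and on aggrecanases, 1.54-fold (adjusted p = 0.00594). In KO_UDCA vs KO_chow, Timp1 was 3.94-fold lower (adjusted p = 9.32e-07) and Timp2 1.45-fold lower (adjusted p = 0.000753), while Reck, a membrane-anchored inhibitor, was 1.23-fold higher (adjusted p = 0.0226). The difference for Timp3 was -0.29 log2 there and was not called (adjusted p = 0.216). Timp1 and Timp2 remained called in both comparisons without KO_chow replicates 2 and 5, while Timp3 on chow (adjusted p = 0.0612) and Reck in KO_UDCA vs KO_chow (adjusted p = 0.198) did not.

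Of 13 genes for maturation and trafficking, 2 rose on chow (15.4% of the list, against 13.7% of all genes called), Rhbdf1 (1.63-fold, limma adjusted p = 0.000811) and Rhbdf2 (1.43-fold, adjusted p = 0.0319). They encode iRhom proteins, which escort ADAM17 to the cell surface. Both were lower in KO_UDCA than in KO_chow, with changes of -0.58 and -0.55 log2, and Furin, a convertase that removes propeptides, was 1.19-fold higher (adjusted p = 0.0301). Among 26 genes of shed membrane proteins 16 rose on chow and 0 fell (median 0.49 log2), or 61.5%, against 7.69% of all genes called higher. The largest rises were those of Cdh1 (E-cadherin, 3.03-fold), Cd44 (2.95-fold) and Hbegf, a growth factor precursor (2.54-fold). In KO_UDCA vs KO_chow 14 of the 26 were lower (median -0.35, against 0.03 over all genes), or 53.8%, against 6.22% of all genes called lower. Hbegf was lower by 2.82-fold, Cd44 by 2.60-fold and Cdh1 by 2.38-fold. Among 19 genes of matrix substrates 9 rose on chow and 0 fell (median 0.31 log2), or 47.4%, against the same 7.69%. The largest rises were those of Thbs1 (thrombospondin, 4.59-fold) and the collagen genes Col1a1 (4.47-fold) and Col3a1 (3.37-fold). Vcan, the gene of versican, was 2.31-fold higher (limma adjusted p = 0.00189). In KO_UDCA vs KO_chow 9 genes of the list were lower (median -0.25), or 47.4%, against 6.22% of all genes called lower. Thbs1 was lower by 4.90-fold, Col1a1 by 3.69-fold and Col3a1 by 3.13-fold. Without KO_chow replicates 2 and 5, 11 of the 26 shed protein genes and 10 of the 19 matrix genes were called on chow, and 8 and 7 in KO_UDCA vs KO_chow, while Vcan was called on chow only. All genes called were then 1089 on chow and 673 in KO_UDCA vs KO_chow. Of the maturation genes, Rhbdf1 alone was then called on chow (Rhbdf2 adjusted p = 0.393), and 0 in KO_UDCA vs KO_chow (Rhbdf1 adjusted p = 0.0812, Rhbdf2 0.328, Furin 0.157). The relative Thsd4, an ADAMTS-like gene with another symbol, rose 1.26-fold on chow (adjusted p = 0.0200) and was 1.29-fold lower in KO_UDCA than in KO_chow, of which only the second call held without these replicates (adjusted p = 0.0561 and 0.0396), whereas Adamdec1 and Papln were not called.

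**Figure D3:**
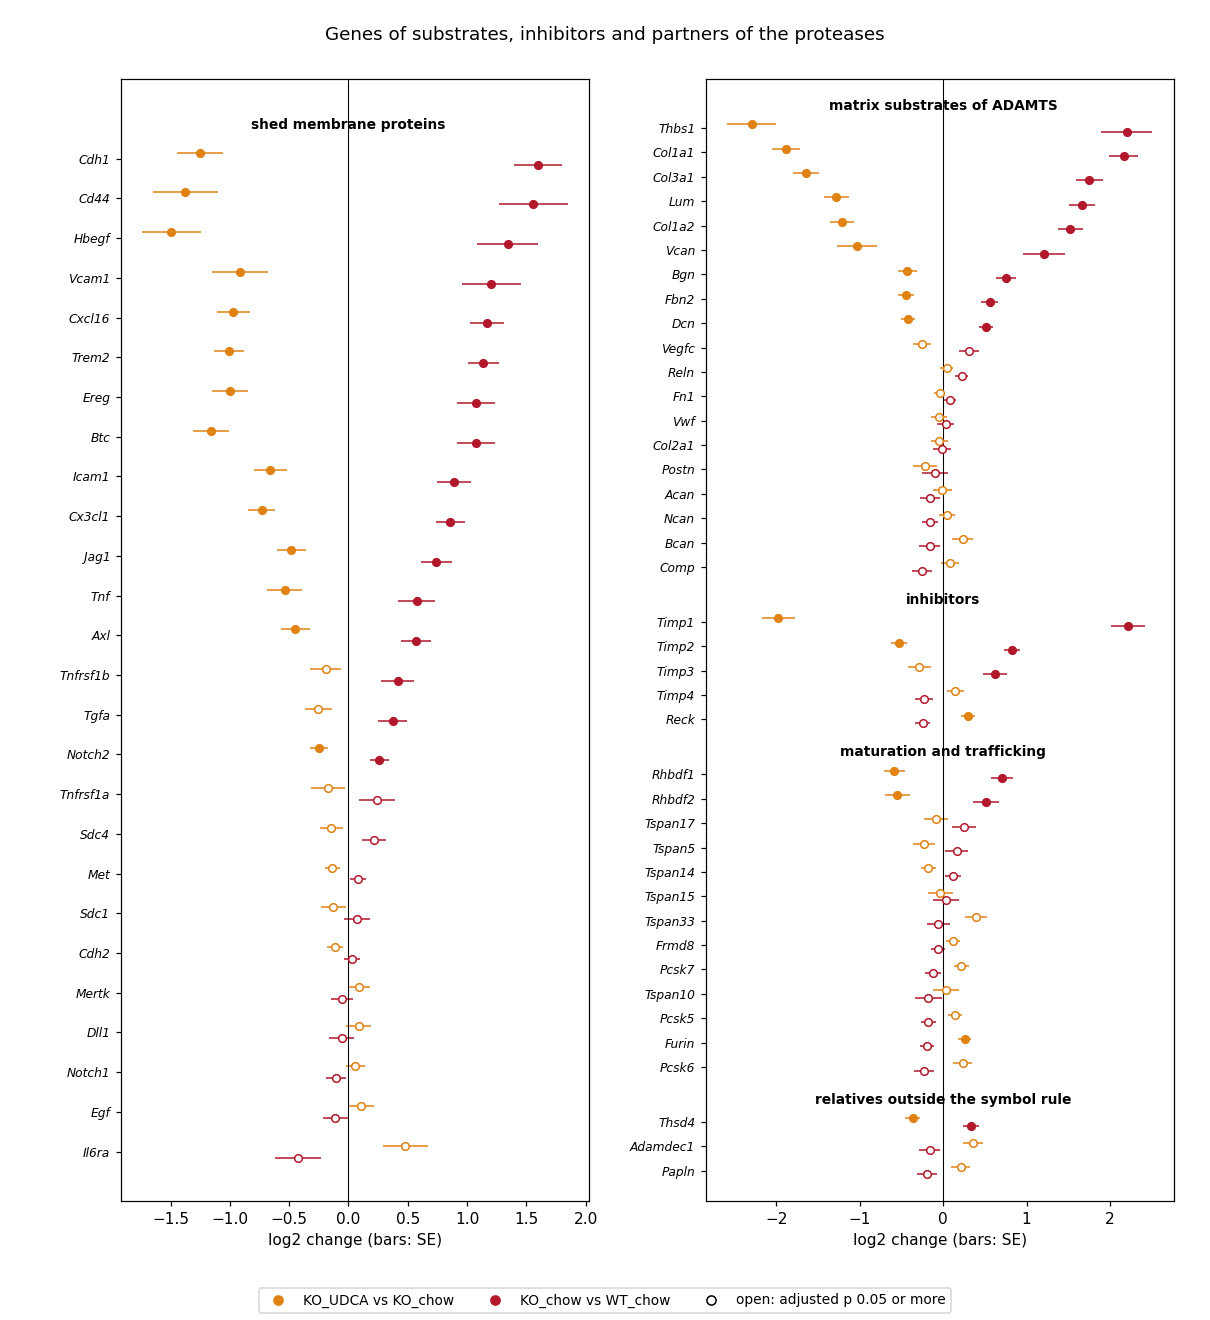
Log2 change with its standard error of genes for shed membrane proteins, matrix substrates, inhibitors, maturation factors and relatives of the proteases, in KO_UDCA vs KO_chow (orange) and KO_chow vs WT_chow (red); filled points have a limma adjusted p below 0.05. Timp1, Thbs1 and Col1a1 have the widest spread between the 2 comparisons, and genes of maturation other than Rhbdf1, Rhbdf2 and Furin have open points.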

How the data were processed

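Per the labels, the authors deposited 1 intensity per probe set and array, made by RMA with probe-level modelling and left unlogged; the submitters' processing notes name RMA only, with no version and no genome build. Of 24973 rows, 24015 had 1 gene symbol in the platform annotation and 958 had none. Where 4 symbols stood on more than 1 row, the brightest row on average was used, which left 24011 genes. All 57 members matched a RefSeq symbol (GRCm38.p6). The log2 of each intensity entered limma 3.58.1 (R 4.3.3, tables read by data.table, version 1.17.8) with 4 group means, 22 arrays, no pseudocount and no filter. Tests were two-sided with Benjamini-Hochberg adjustment over all genes, and calls needed an adjusted p below 0.05. The code was tested on simulated data. The number of arrays limits the precision. Figures used matplotlib 3.10.9 (Python 3.11.15). The members, families and lists were chosen with earlier results of these data known. Genes named are the members called in the first 2 comparisons or the interaction, Adam10, Adam17 and Adamts13, per family the largest change and the smallest p, and the 3 largest called changes of each list. Adam25, Adam6a, Adamts7, Adamts14, Adamts20, Adamtsl3 to Adamtsl5, Vcan, Vwf, Adamdec1, Papln and the uncalled members given by range were named after their values were seen. Listed genes with no row are not analysed here.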

Additional observations from a re-analysis of the deposited data

Results flagged for a closer look

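Of 60 groups of mice examined over the members named by sample (15 genes in 4 groups), 2 held a mouse far from the others, and chance alone flags about 1 in 20 groups. Adam17 was 7.08 log2 in WT_UDCA replicate 6, while the other 5 mice of that group lay between 6.79 and 6.87. Adamtsl2 was 6.88 in KO_UDCA replicate 4, while the other 5 lay between 6.37 and 6.55.

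The effect of the diet differed between knockout and wild-type mice, by the test of the interaction in limma, for 5 members. The difference of the diet effects was -1.55 log2 for Adam8 (adjusted p = 0.00963), -0.90 for Adamts9 (0.00698), -0.80 for Adamtsl2 (0.00438), -0.75 for Adamts12 (0.0264) and -0.59 for Adamts3 (0.0427). Adamts3 lost this call in 13 of 22 fits that left out 1 mouse, with quantile normalization and with the run of title numbers as a term. Adamts12 lost it in 3 of the 22 fits (0.0503 to 0.0613). Without KO_chow replicates 2 and 5 both lost it (Adamts12 0.169, Adamts3 0.257).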

How the results depend on the processing

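Over the 15 members named by sample, no change reversed its sign where it was called, and 1743 of the values recomputed under an alternative kept their direction and side of the threshold, while 61 fell short of it and 14 passed it newly. The count on chow (13) was 8 with dim genes left out, 6 of the 13 with Adam9 and Adam15 as new calls. The filter itself removed 7 of the 13. In KO_UDCA vs KO_chow the count of 9 was 6 with this filter, which removed Adam8, Adamts12 and Adamts4. All genes called rose with this filter, from 3295 to 3559 on chow and from 2701 to 3035 in KO_UDCA vs KO_chow. In the interaction they rose from 642 to 930. Without KO_chow replicates 2 and 5 the count on chow was 7, all among the 13. The count of 9 in KO_UDCA vs KO_chow was 5 without these replicates, 4 of the 9 and Adamts5 as a new call. The interaction count of 5 was 3 with dim genes left out, 2 of the 5 and Adamts1 as a new call. It was also 3 without these replicates, all among the 5. All genes called without them were 1089, 673 and 207 in these comparisons, against 3295, 2701 and 642 with all mice. Leaving out 1 mouse at a time gave 10 to 15 calls on chow, 7 to 10 in KO_UDCA vs KO_chow and 3 to 7 in the interaction, where leaving out KO_chow replicate 2 or 5 or WT_chow replicate 3 gave 3. In the same fits all genes called ran from 2219 to 3849 on chow, from 1632 to 3201 in KO_UDCA vs KO_chow and from 301 to 1219 in the interaction. Leaving out 1 mouse added calls of Adam9, Adam15 and, as lower, Adam2 and Adamts8 on chow, and of Adamts1 and Adamts4 in the interaction. In KO_UDCA vs KO_chow it added Adam2, Adam18, Adamts5 and Adamts15. Of these members, Adam9, Adam15, Adamts5 and Adamts1 were also called under other alternatives. Adamts12 lost its interaction call without any 1 of these (adjusted p 0.0503 to 0.0613), and Adamts3 lost it in 13 of 22 such fits. The other 3 comparisons gave 0 calls under all these alternatives. Fitting only the groups compared gave 10 calls on chow (without Adamts4, Adamts5 and Adamts10) and 7 in KO_UDCA vs KO_chow, with 2008 and 1454 of all genes called. Quantile normalization, a pseudocount of 16, another variance moderation, group weights and the 2 runs of title numbers as a term kept the counts within 1.5 times. No paired analysis was possible because the titles give each mouse its own number and replicate numbers follow the order of the records. Most testis ADAM values, all of Adamts3 and Adamtsl1, those of Adam8 and Adamts4 outside KO_chow, and the wild-type values of Adamts5, Adamts12 and Adamts15 lay below the array median, where signal over background limits what can be read. The same holds for at least some KO_UDCA values of Adamts5, Adamts12 and Adamts15. In KO_chow it holds for Adam8 in replicate 4, Adamts4 in replicates 1 and 4 and Adamts5 in replicate 5.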
